A study of Mus musculus with 6 samples.

Results

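The genes described here are 35 that encode the folding and quality-control machinery of the endoplasmic reticulum (ER), measured in RNA from the mucosa of the mouse gastric antrum. They were taken by name from the 34866 gene identifiers of the count table, from a list of ER genes drawn up with earlier results of these data known. The rule itself uses no measured value. The list holds 9 chaperones of the Hsp70 and Hsp90 type with their cofactors, 2 lectin chaperones, 8 disulfide enzymes, 2 subunits of the Sec61 channel, 10 genes of ER-associated degradation and 4 genes that sense ER stress or carry its signal. All 35 were found in the table and all 35 passed the filter on low counts. The study compared 3 libraries from Muc6 +/+ mice (wild type 1 to 3) with 3 from Muc6 -/- mice (knockout 1 to 3). Muc6 is a gel-forming mucin that antral gland cells secrete. Strain, age, sex and the way the allele was made were not given in the sources used here, and neither was whether each library came from its own animal. The spread behind each p-value is that between libraries, and part or all of it may be technical.

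Proteins that will be secreted or sit in membranes enter the ER through the Sec61 channel. Inside, Hspa5 (BiP) and other chaperones hold them while disulfide enzymes join cysteines, and calnexin and calreticulin hold those that carry N-linked sugars. Proteins that do not fold are trimmed, moved back through the membrane by a complex built on Sel1l and the ubiquitin ligase Syvn1, and degraded. When unfolded proteins build up, the sensors Ern1 (IRE1 alpha), Ern2 (IRE1 beta), Atf6 and Eif2ak3 (PERK) switch on chaperone and degradation genes, in part through the transcription factor Xbp1. Mucous cells of the stomach and gut make very large cysteine-rich mucins, and Ern2 and the disulfide isomerase family member Agr2 are characteristic of such cells. Xbp1 and Atf6 are activated by splicing and by cleavage, which counts per gene do not show.

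Libraries held 19839799 to 21354029 estimated counts. Levels are in CPM, counts scaled to a common library size with a composition factor. Wild-type libraries held 396, 403 and 510 CPM of Muc6, and knockout libraries 0.0425, 0 and 0 CPM. Libraries numbered 1 stood apart from the other 4 on the second principal component, which held 19.58% of the variance. The 4 Y-linked genes examined summed to 5.85 to 6.73 CPM in wild-type libraries and 132 to 139 CPM in knockout libraries, so sex and genotype cannot be told apart in any difference below. Of the stomach and antrum markers, Cldn18, Nkx6-3, Pdx1 and Sox2 were present in every library. Among them Cldn18 was called lower in the knockout (log2 fold change -0.53, edgeR adjusted p = 0.0266) and Pdx1 higher (0.67, 0.0103). The antral hormone gene Gast was at 762 to 1196 CPM in wild-type and 9.52 to 24.8 CPM in knockout libraries. Of all 14017 tested genes, 38.4% differed at an adjusted p under 0.05, 19.3% higher and 19.2% lower in the knockout.

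More of these genes rose than fell in the knockout, and most did not pass. Of the 35 genes, 12 rose, 3 fell and 20 did not pass. The share that rose, 34.3%, stands beside 19.3% of all tested genes. The share that fell, 8.57%, stands beside 19.2%. The share called in either direction was 42.9%, near the 38.4% of all tested genes. The median log2 fold change of the 35 was 0.32, against 0.02 over all tested genes, and 27 were above 0. The values of the genotypes did not overlap for 19 genes that were higher and 4 that were lower, where 28.2% and 26.6% of tested genes did so, or 54.8% in all. The 6 genes Hspa5, Hyou1, Sdf2l1, Creld2, Calr and Pdia4 were called higher under each of the 17 alternative settings tried.

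Directions are relative to composition scaling. Scaling to total counts raised the median of all genes from 0.02 to 0.43, and that of the 35 genes from 0.32 to 0.74. On that scale 28 of the 35 were higher and 0 lower, against 40.9% and 7.78% of all tested genes. With the 20 most abundant genes left out of the library sizes, 21 were higher and 0 lower, against 29.2% and 12.2% of all tested genes. The 3 falls reported below (Dnajb9, Txndc5 and Sec61b) therefore ended on both of these scales. Leaving out wild type 2 or wild type 3 left 7 higher and 1 lower, with 11% and 13.2% of all genes higher and 12% and 14% lower in those fits. Without knockout 2 the counts were 8 and 0, beside 12.6% and 12% of all genes. Without knockout 1 they were 13 and 0, beside 15.6% and 15.7%. Without both libraries numbered 1 they were 18 and 4, beside 23.7% and 24.3% of all genes.

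**Figure D1:**
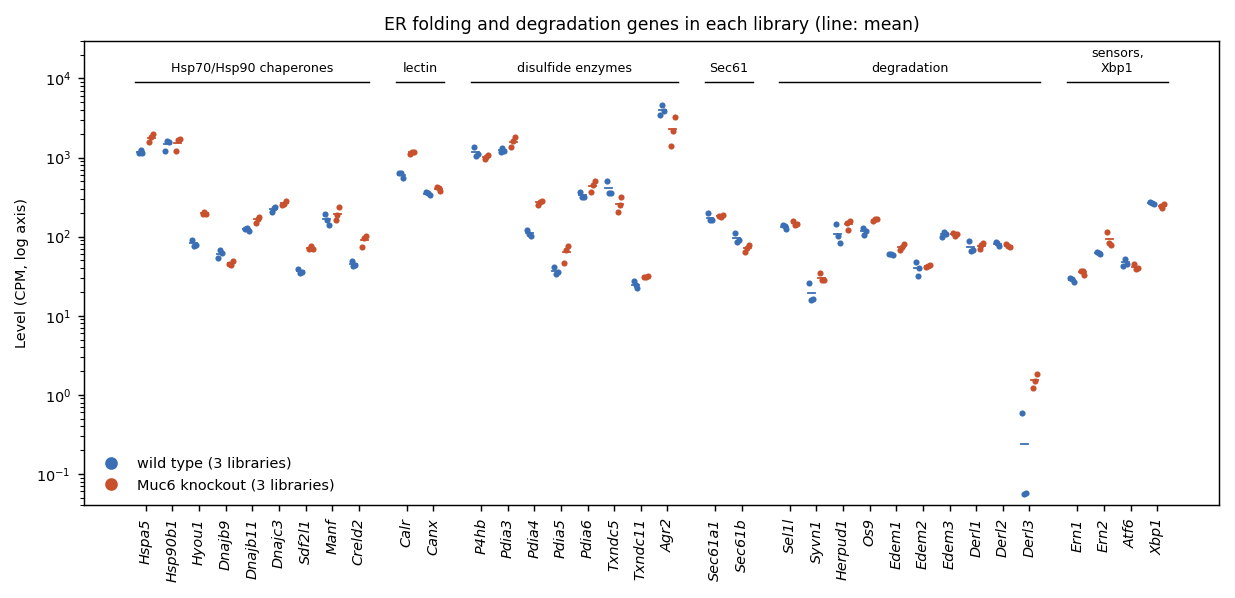
Level of each of the 35 ER genes in every library, in CPM on a log axis, grouped by role. Points are libraries, 3 of wild type (blue) and 3 of knockout (orange), and lines are the means. Agr2 is the highest gene and Derl3 the lowest, and the points of the genotypes separate for genes such as Hyou1, Pdia4, Sdf2l1 and Calr.

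Markers of other cell types moved with the genotypes too. The 5 markers of pit mucous cells summed to 160590 to 186870 CPM in wild-type and 37730 to 48755 CPM in knockout libraries, and 5 of 5 fell. The 9 plasma cell markers, genes of a cell type rich in ER, summed to 1.9 to 3.25 CPM in wild-type and 257 to 746 CPM in knockout libraries. All 6 that could be tested rose, the defining marker Mzb1 reached 0.416 to 1.53 CPM in the knockout, and Tnfrsf17 was at 0.0416 to 0.085 CPM there. The 5 chief cell markers summed to 4122 to 5610 CPM against 143 to 1176 CPM, with 2 of the 4 tested lower. The 6 markers of gland mucous cells summed to 7477 to 9420 CPM against 14226 to 22238 CPM, with 3 higher and Muc6 lower. Of the 7 enterocyte markers 4 rose and 1 fell, with sums of 949 to 988 CPM against 701 to 2378 CPM, and of 6 goblet markers 1 rose and 1 fell, with sums of 3570 to 5963 CPM against 2611 to 4040 CPM. Markers of pancreatic acinar cells were near 0 in every library, at sums of 0 to 0.326 CPM, and Cpa1 was at 0 in all 6. Fibroblast, myeloid and smooth muscle markers held no called gene, but single libraries stood apart. Fibroblast markers summed to 44.6 CPM in wild type 1 and to 389 to 717 CPM in the other 5 libraries. Smooth muscle markers summed to 117 CPM in wild type 1, 22.8 CPM in knockout 1 and 395 to 1857 CPM in the other 4. Myeloid markers summed to 179 CPM in knockout 1 and 2.44 to 20.6 CPM in the other 5. The 4 epithelial markers summed to 8694 to 10363 CPM in wild-type and 8244 to 8554 CPM in knockout libraries, most of it Krt8. Krt8 fell by 0.50 on the log2 scale, while Epcam rose by 1.16 and Krt18 by 0.99, and the median of the 4 was 0.65. The 8 mitochondrial transcripts examined all fell, with sums of 90545 to 139220 CPM against 57669 to 68341 CPM. The part of these cell types in the differences of the ER genes was not tested. In a bulk sample fewer cells of a type and less RNA per cell cannot be told apart.

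The promoters were read for the ER stress element. RefSeq promoters on GRCm38.p6, each spanning 250 bases before to 50 bases after a start, were found for 29 of the 35 genes. They were searched on both strands for the element ERSE, which Atf6 binds together with NF-Y and on which Xbp1 can also act, for ERSE-II and for UPRE (TGACGTGG). ERSE was taken as CCAAT and CCACG with 9 free bases between them, and ERSE-II as ATTGG and CCACG with 1. No matches overlapped in these genes. ERSE was present in 9 of the 29 (31%), against 28 of 16792 genes of the table with a promoter (0.167%). The 28 include these 9. Such shares follow from how the list was drawn up and from promoter sequence, and are not a result of the libraries. ERSE-II was in 2 (Herpud1 and Dnajb11, 6.9% against 0.0596%) and UPRE in 2 (Txndc5 and Txndc11, 6.9% against 0.846%). A match is a description of the letters only. Entries were not found for Hyou1, Manf, Sec61a1, Derl1, Ern2 and Atf6.

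The 9 genes with ERSE are shown because they split between those that rose and those that did not pass. Each stretch is read 5′ to 3′ on the strand of its gene, 12 bases either side of the match, with the fixed bases of the element in capitals. The first 4 belong to genes that rose.
Hspa5, chr2:34772013-34772055, plus strand: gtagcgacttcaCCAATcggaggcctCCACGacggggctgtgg
Calr, chr8:84847063-84847105, minus strand: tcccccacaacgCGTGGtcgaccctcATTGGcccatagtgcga
Creld2, chr15:88819508-88819550, plus strand: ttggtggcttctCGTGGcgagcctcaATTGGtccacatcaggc
Derl3, chr10:75893230-75893272, plus strand: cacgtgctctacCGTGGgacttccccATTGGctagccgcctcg
The other 5 belong to genes that did not pass.
Syvn1, chr19:6046520-6046562, plus strand: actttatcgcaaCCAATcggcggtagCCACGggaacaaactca
Pdia6, chr12:17266479-17266521, plus strand: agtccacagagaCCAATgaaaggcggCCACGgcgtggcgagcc
Dnajc3, chr14:118937815-118937857, plus strand: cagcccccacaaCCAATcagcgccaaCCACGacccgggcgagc
Canx, chr11:50325788-50325830, minus strand: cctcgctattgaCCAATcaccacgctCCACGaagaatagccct
Hsp90b1, chr10:86705521-86705668, minus strand: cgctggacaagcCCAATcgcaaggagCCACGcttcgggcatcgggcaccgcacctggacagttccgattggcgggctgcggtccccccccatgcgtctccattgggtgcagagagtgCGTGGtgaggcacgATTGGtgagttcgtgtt
In Calr, Creld2 and Derl3, and in the second match of Hsp90b1, the element lies on the opposite strand, so its bases read CGTGG and ATTGG. The Hsp90b1 stretch holds 2 matches.

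Genes with the element lay on both sides of the threshold, and the split was not tested. The 6 genes without a promoter entry, of which 2 rose and 4 did not pass, are in neither set below. Of the 9 with ERSE, 4 rose, 0 fell and 5 did not pass, and all 9 were above 0. Their median log2 fold change was 0.59, from 0.05 to 2.63. Of the 20 with a promoter entry and no ERSE, 6 rose, 3 fell and 11 did not pass. In these 20 the median was 0.23 and 13 were above 0. These 20 include Pdia4 and Sdf2l1, which are among the most strongly raised genes of the group. Only exact matches were searched, so a copy that differs at a fixed base counts here as absent. Outside the group, 19 genes of the table held ERSE. The 10 of these that could be tested gave 2 higher, 4 lower and 4 that did not pass. Their median was -0.30, with a wide range of -2.89 to 6.87. Of all tested genes, 19.3% were higher and 19.2% lower. Sets of this size cannot show whether the element goes with a rise.

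**Figure D2:**
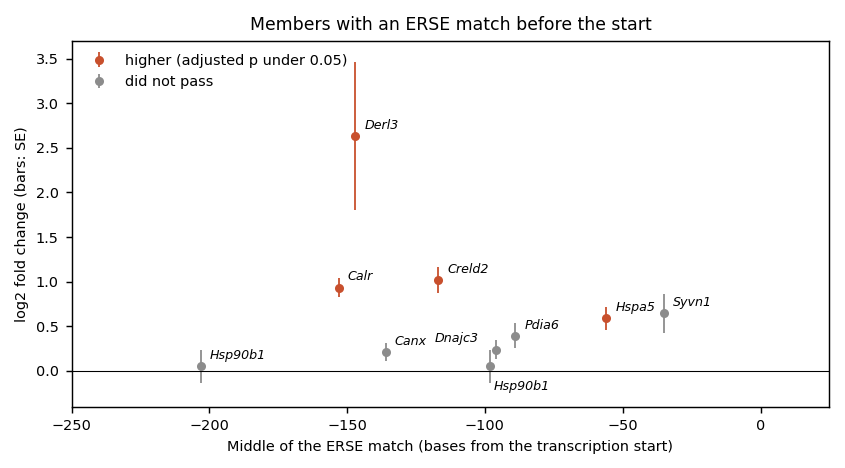
log2 fold change of knockout over wild type (points, with SE bars) for the 9 genes with an ERSE match, against the position of the middle of the match in bases from the transcription start. Hsp90b1 appears at its 2 matches. Genes that rose (orange) and genes that did not pass (grey) lie at similar distances from the start.

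Among the Hsp70 and Hsp90 chaperones and their cofactors, 5 of 9 rose, 1 fell and 3 did not pass, with a median log2 fold change of 0.42. Over all tested genes 19.3% rose and 19.2% fell. Hspa5 (chromosome 2, 34771970 to 34777547, plus strand, mm10), the central Hsp70 of the ER, was at 1157, 1247 and 1144 CPM in wild-type libraries and 1561, 1804 and 1977 CPM in knockout libraries. All 3 knockout libraries lay above all wild-type ones, and the gene rose by 0.59 (SE 0.13, edgeR adjusted p = 0.0101). Hyou1 (chromosome 9, 44379490 to 44392369, plus strand), a large Hsp70 that releases nucleotide from Hspa5, was at 89.8, 76.5 and 79.6 CPM against 194, 207 and 191 CPM. It rose by 1.27 (SE 0.10, adjusted p = 3.98e-04), more than Hspa5 itself, and the spread within each genotype was small beside the gap. Sdf2l1 (chromosome 16, 17130138 to 17132383, minus strand), which keeps Hspa5 clients from aggregating together with Dnajb11, was at 39, 35.2 and 35.3 CPM against 70, 75.1 and 69.8 CPM. It rose by 0.97 (SE 0.10, adjusted p = 6.39e-04), and by 0.64 with the trend of each library over GC content removed (0.00213).

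Creld2 (chromosome 15, 88819646 to 88826683, plus strand), a secreted ER protein induced by ER stress, was at 49.8, 42.4 and 43.3 CPM against 73.6, 97.2 and 103 CPM. It rose by 1.02 (SE 0.15, adjusted p = 0.00222), and knockout 1 was the lowest knockout library while still above all wild-type ones. The Creld2 rise was 0.75 with the GC trend removed (0.00596). Dnajb11, an Hsp40 that passes clients to Hspa5, was at 126, 129 and 117 CPM against 150, 168 and 179 CPM. Its rise of 0.42 (SE 0.11, adjusted p = 0.0192) was small, and leaving out any 1 library other than those numbered 1 ended the call (0.0505 to 0.0797). The Dnajb11 rise was 0.31 with the GC trend removed (0.0486). Dnajb9, an Hsp40 that helps return Ern1 to its resting state, went the other way. It was at 54.3, 66.9 and 62.2 CPM in wild-type libraries and 45.5, 43.8 and 49.5 CPM in knockout libraries, and fell by 0.40 on the log2 scale (SE 0.11, adjusted p = 0.0275). Leaving out wild type 2 or 3, or knockout 1 or 2, ended its call (0.0692 to 0.104). With the trend of each library over GC content removed, its log2 fold change was 0.04 (0.719).

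The remaining 3 chaperone genes did not pass. Hsp90b1, the ER form of Hsp90, was at 1205, 1613 and 1583 CPM against 1196, 1669 and 1694 CPM. Libraries numbered 1 were the lowest of each genotype, and the log2 fold change was 0.05 (SE 0.18, adjusted p = 0.846). Manf, a small secreted stress-induced cofactor of Hspa5, was at 194, 163 and 140 CPM against 162, 187 and 235 CPM, with overlap of the genotypes. Its log2 fold change of 0.23 (adjusted p = 0.324) became 0.45 without both libraries numbered 1 (0.0283). In GENCODE M21 the annotated span of Manf covers Rbm15b on the same strand and Dcaf1 on the other, so reads may be shared. Dnajc3, which also limits PERK signalling, was at 204, 230 and 238 CPM against 251, 259 and 282 CPM. The values did not overlap, but the log2 fold change of 0.24 (SE 0.11) gave an adjusted p of 0.114. It was 0.55 and passed with the GC trend removed (0.0036).

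The soluble and the membrane-bound lectin chaperone differed in size of change. Calr (calreticulin, chromosome 8, 84841850 to 84846934, minus strand) was at 643, 629 and 549 CPM against 1120, 1191 and 1170 CPM, and rose by 0.93 (SE 0.11, adjusted p = 0.00105). Canx (calnexin) was at 363, 353 and 335 CPM against 424, 415 and 375 CPM. All knockout values of Canx lay above those of wild type, but its log2 fold change of 0.21 (SE 0.10, adjusted p = 0.137) did not pass. With the GC trend removed Canx was called higher, at 0.56 (0.0103), and Calr was at 0.86. The ratio of Calr to Canx within a library, which library scaling does not change but a GC trend can, was 1.73 ± 0.08 (SD, n = 3) in wild-type and 2.88 ± 0.24 in knockout libraries (n = 3), with no overlap.

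**Figure D3:**
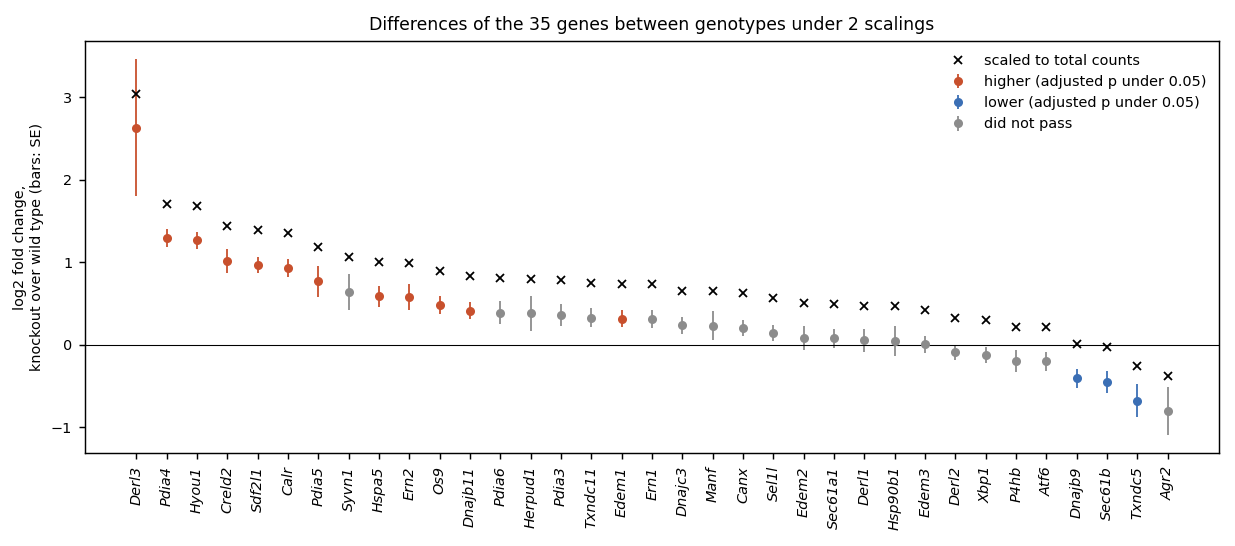
log2 fold change of each of the 35 genes, knockout over wild type, ordered by size. Circles with SE bars are on the composition-scaled libraries, coloured by call, and crosses are the same genes scaled to total counts. The crosses lie above 0 for all but Sec61b, Txndc5 and Agr2.

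The disulfide enzymes moved in both directions, with 2 of 8 higher, 1 lower and 5 that did not pass. All tested genes did so too, with 19.3% higher and 19.2% lower. Pdia4 (chromosome 6, 47796141 to 47813430, minus strand), a disulfide isomerase that works with Hspa5, was at 122, 108 and 103 CPM in wild-type libraries and 253, 276 and 286 CPM in knockout libraries. Its rise of 1.29 (SE 0.11, adjusted p = 4.43e-04) was large beside its standard error. Pdia5, a less abundant family member, was at 41.5, 33.8 and 36 CPM against 46.5, 67.4 and 75.9 CPM. Knockout 1 lay close to wild type 1, and the rise of 0.77 (SE 0.19, adjusted p = 0.0162) was no longer called when wild type 2 or 3, or knockout 2, was left out (0.0561 to 0.0682). The Pdia5 rise was 0.55 with the GC trend removed, close to the threshold (0.0465). Txndc5, an isomerase with thioredoxin domains, fell by 0.67 on the log2 scale (SE 0.20, adjusted p = 0.0341). It was at 512, 359 and 358 CPM in wild-type libraries and 206, 250 and 314 CPM in knockout libraries, so that wild type 1 stood above the other libraries. Leaving out library 1 or 2 of either genotype ended the call of Txndc5 (0.0627 to 0.103).

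Agr2, the isomerase family member of mucous cells, was the most abundant of the 35 genes and also the most variable in the knockout. It was at 3465, 4555 and 3841 CPM in wild-type libraries and 1421, 2158 and 3252 CPM in knockout libraries. The values did not overlap, but knockout 3 lay just below wild type 1, and the log2 fold change of -0.80 (SE 0.29) did not pass (adjusted p = 0.0666). It passed without knockout 3 (-1.14, adjusted p = 0.0151), without both libraries numbered 1 (-0.66, 0.0392) and with DESeq2 (0.00607). The chief cell markers, summing to 143, 533 and 1176 CPM in knockout 1, 2 and 3, and the gland mucous markers, at 14226, 16776 and 22238 CPM, took the same order over these 3 libraries, as did the enterocyte markers at 701, 1983 and 2378 CPM. The pit mucous markers, at 37730, 48755 and 47629 CPM, and the goblet markers, at 2611, 4040 and 3782 CPM, did not. Nor did the plasma cell, fibroblast, myeloid, smooth muscle and epithelial markers. In wild type 1, 2 and 3 the chief cell markers summed to 4618, 4122 and 5610 CPM. Gland mucous markers summed to 9420, 7500 and 7477 CPM there, and enterocyte markers to 988, 949 and 974 CPM. None of these sums took the order of Agr2 over the wild-type libraries. The part of these cells in the Agr2 values was not tested. Agr2 made up 27.22% to 33.21% of the summed CPM of the 35 genes in wild-type and 12.39% to 21.35% in knockout libraries. Without it, the other 34 summed to 9086 ± 224 CPM (SD, n = 3) over wild-type and 11105 ± 979 CPM over knockout libraries (n = 3), with no overlap.

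The other disulfide enzymes did not pass. P4hb, the classical protein disulfide isomerase, was at 1344, 1050 and 1111 CPM against 954, 1021 and 1080 CPM, and its log2 fold change was -0.20 (SE 0.13, adjusted p = 0.266). P4hb was called lower with the GC trend removed, at -0.43 (0.0176). Pdia3, which acts on the clients of calnexin and calreticulin, was at 1175, 1306 and 1222 CPM against 1378, 1604 and 1796 CPM, with a log2 fold change of 0.37 (adjusted p = 0.0621). Pdia6, at 371, 318 and 317 CPM against 369, 449 and 503 CPM, had one of 0.39 (0.0612). Pdia3 passed without knockout 1 (0.031) and with the GC trend removed (0.0219), and Pdia6 without wild type 1 (0.0425) or knockout 1 (0.0247). In both genes knockout 1 was the lowest knockout library, and for Pdia6 it lay within the wild-type range. Txndc11, which links oxidation in the ER to Edem-dependent disposal, was at 27.4, 24.6 and 22.2 CPM against 31.3, 30.5 and 31.5 CPM. The genotypes did not overlap, and its log2 fold change was 0.33 (adjusted p = 0.0591, and 0.0284 without wild type 1). It overlaps Snn on the other strand. The ratio of Pdia4 to P4hb within a library was 0.0955 ± 0.0066 in wild-type and 0.267 ± 0.00328 in knockout libraries (SD, n = 3 each), the widest gap among the 7 ratios computed.

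Ratios between genes were taken because library scaling does not change them, and the pairs were chosen after the values were seen. Hyou1 to Hspa5 was 0.0776, 0.0614 and 0.0695 in wild-type and 0.124, 0.114 and 0.0966 in knockout libraries. Hspa5 to Hsp90b1 was 0.96, 0.773 and 0.723 against 1.3, 1.08 and 1.17. In both, every knockout library lay above every wild-type one. With the GC trend removed the log2 fold changes of these genes lay closer together, at 1.08 for Hyou1, 0.77 for Hspa5 and 0.43 for Hsp90b1. With 3 libraries against 3, an exact permutation test cannot go below a two-sided p of 0.1, and none was run on the ratios.

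**Figure D4:**
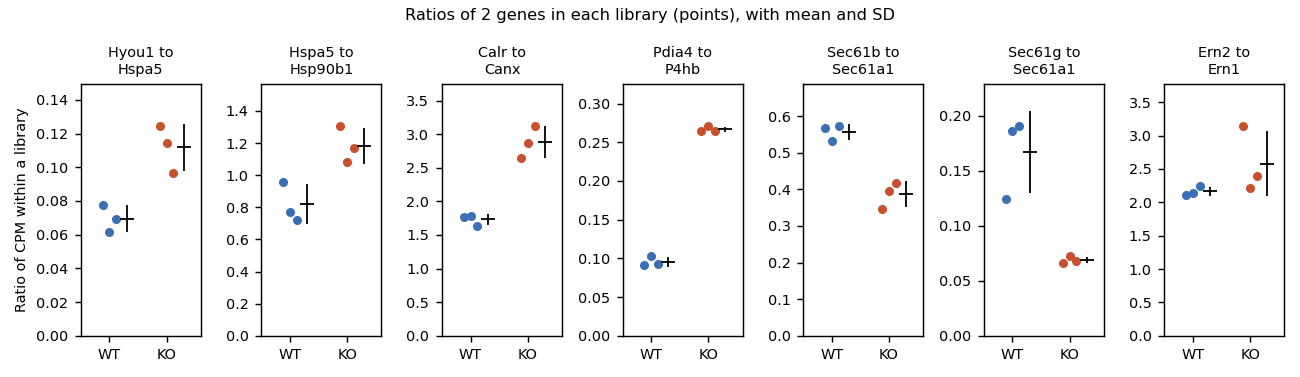
Ratio of the CPM of 2 genes within each library (points) for 7 pairs, with mean and SD beside each genotype. The genotypes separate for 6 pairs, upward for the 4 chaperone and disulfide pairs and downward for Sec61b and Sec61g to Sec61a1, and overlap for Ern2 to Ern1.

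The 2 subunits of the Sec61 channel gave different values. Sec61a1, which forms the pore, was at 198, 163 and 161 CPM in wild-type libraries and 184, 179 and 187 CPM in knockout libraries, with a log2 fold change of 0.08 (adjusted p = 0.612). Sec61b, a small tail-anchored subunit, was at 112, 86.4 and 91.9 CPM against 63.9, 71.1 and 78.1 CPM. Every knockout value of Sec61b was below every wild-type value, and it fell by 0.45 on the log2 scale (SE 0.13, adjusted p = 0.0327). Leaving out wild type 3, or knockout 1 or 2, ended the call (0.0555 to 0.0974), as did leaving out both libraries numbered 1 (-0.28, 0.0515). The ratio of Sec61b to Sec61a1 was 0.557 ± 0.0218 in wild-type and 0.387 ± 0.0363 in knockout libraries (SD, n = 3 each), with no overlap.

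Of the 10 genes of ER-associated degradation, 3 rose, 0 fell and 7 did not pass, with a median of 0.23. These counts stand beside 19.3% higher and 19.2% lower among all tested genes. Os9, a lectin that hands glycoproteins to Sel1l, was at 130, 105 and 119 CPM against 159, 168 and 166 CPM, and rose by 0.48 (SE 0.11, adjusted p = 0.0123). The groups did not overlap, yet with the GC trend removed the log2 fold change was 0.16 (0.166). Edem1, which speeds mannose trimming of misfolded glycoproteins, was at 60, 60.3 and 58.1 CPM against 67.8, 73.4 and 81.4 CPM. Its rise of 0.32 (SE 0.10, adjusted p = 0.041) ended as a call without any 1 library other than knockout 1 (0.0582 to 0.135) and with no filter on low counts (0.058). Derl3, a derlin of secretory cells, was by far the scarcest of the 35, with 13 counts over wild type and 107 over the knockout. It was at 0.598, 0.0562 and 0.058 CPM in wild-type libraries and 1.23, 1.5 and 1.83 CPM in knockout libraries, a rise of 2.63 (SE 0.83, adjusted p = 0.0395). Wild type 1 held most of the wild-type counts, and without that library the log2 fold change was 4.59 (0.00311).

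Leaving out wild type 2 or 3 or any 1 knockout library ended the Derl3 call (0.0569 to 0.128), and it also ended with the GC trend removed (0.0519). Plasma cells are known to express Derl3, and their 9 markers summed to 464, 257 and 746 CPM in knockout 1, 2 and 3. Their part in the Derl3 values was not tested. The derlins Derl1 and Derl2, which are widely expressed, gave log2 fold changes of 0.06 (SE 0.14, adjusted p = 0.775) and -0.09 (SE 0.10, adjusted p = 0.481). Derl1 was at 88.1, 65.6 and 68.8 CPM against 70.6, 77.8 and 82.9 CPM, and Derl2 at 86, 82.8 and 76.1 CPM against 80.6, 75.4 and 73.9 CPM. Derl2 overlaps Mis12 on the other strand, whose counts came to 40.2% of its own.

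Neither gene at the core of the retrotranslocation complex passed. Sel1l, the adaptor, was at 141, 135 and 126 CPM against 157, 142 and 146 CPM, with a log2 fold change of 0.15 (SE 0.10, adjusted p = 0.269). Syvn1, the ubiquitin ligase, was at 26.3, 15.7 and 16.2 CPM against 34.7, 28 and 28.3 CPM. Its genotypes did not overlap, and the log2 fold change of 0.64 (SE 0.22) lay at the threshold (adjusted p = 0.0503). Wild type 1 was its highest wild-type library, and it passed when that library was left out (0.92, adjusted p = 0.00342), with DESeq2 (0.0255) and limma-voom (0.0418). Syvn1 overlaps Mrpl49 on the other strand, whose counts came to 104% of its own, and the strand setting of the counting was not given in the sources used here.

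Herpud1, a membrane protein that organises the same complex, was at 143, 102 and 83 CPM against 147, 121 and 160 CPM. Wild type 1 lay among the knockout values, and the log2 fold change of 0.38 (SE 0.21, adjusted p = 0.185) became 0.62 without that library (0.022). Its ERSE-II match lies at chr8:94386365-94386399 on the plus strand, with fixed bases in capitals.
Herpud1: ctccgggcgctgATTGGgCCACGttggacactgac
Edem2 and Edem3, the other mannosidase-like genes, gave log2 fold changes of 0.09 (SE 0.15, adjusted p = 0.672) and 0.01 (SE 0.10, adjusted p = 0.967). Edem2 was at 47.4, 32.1 and 40.2 CPM against 41.4, 42.1 and 43.7 CPM, and Edem3 at 99, 115 and 109 CPM against 112, 103 and 109 CPM. Edem3 was called higher with the GC trend removed, at 0.30 (0.0247).

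Of the stress sensors, the mucous cell form differed most. Ern2 was at 63.1, 62.3 and 59.8 CPM in wild-type libraries and 116, 82.3 and 78.2 CPM in knockout libraries, and rose by 0.58 (SE 0.16, adjusted p = 0.0242). Knockout 1 was well above the other 2 knockout libraries, which were themselves above wild type. The call ended without wild type 2 (0.0758) or wild type 3 (0.0835), and with the GC trend removed (0.24, 0.293). Ern1, the widely expressed form, was at 29.9, 29.1 and 26.6 CPM against 36.9, 37.2 and 32.7 CPM. It did not overlap between genotypes, and its log2 fold change of 0.32 (SE 0.11) gave an adjusted p of 0.0548. The ratio of Ern2 to Ern1 was 2.11, 2.14 and 2.25 in wild-type and 3.14, 2.21 and 2.39 in knockout libraries, which overlap.

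Neither transcription factor gene of the pathway among the 35 was called. Xbp1, needed for the ER of secretory cells, was at 277, 269 and 256 CPM in wild-type libraries and 246, 231 and 261 CPM in knockout libraries, with a log2 fold change of -0.12 (SE 0.10, adjusted p = 0.364). Atf6 was at 43.1, 52.8 and 45.6 CPM against 44.7, 38.9 and 39.6 CPM, at -0.20 (SE 0.12, adjusted p = 0.219), and it passed as lower without both libraries numbered 1 (-0.35, 0.0373). With total counts the values of both were above 0, at 0.30 (0.036) for Xbp1 and 0.22 (0.162) for Atf6. Xbp1 was called in the other direction with the GC trend removed, at -0.33 (0.0303).

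A further 105 genes of ER folding, translocation, degradation and stress signalling were read from the same fit. Of the 103 tested, 25 rose, 31 fell and 47 did not pass, and their median log2 fold change was -0.03. Shares of 24.3% higher and 30.1% lower stand beside 19.3% and 19.2% of all tested genes. Other folding and disulfide genes gave 12 of 40 higher and 9 lower, other degradation genes 6 of 26 higher and 7 lower, and other stress signalling genes 5 of 17 higher and 4 lower. Translocation and signal peptide genes differed from this, with 2 of 20 higher, 11 lower and a median of -0.42. No gene of these 4 lists held ERSE among the 82 with a promoter entry. Calls among the 105 moved to 47 higher and 11 lower with total counts, where 40.9% and 7.78% of all tested genes were called. They moved to 36 higher and 18 lower with the 20 most abundant genes left out of library sizes (29.2% and 12.2% of all genes), and to 21 and 19 with the GC trend removed (17.7% and 16.5%). Leaving out wild type 2 gave 15 higher and 21 lower (11% and 12% of all genes), and leaving out knockout 2 gave 17 and 16 (12.6% and 12%).

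The genes of this list with the smallest p in each direction were named by rule. Prkcsh, the beta subunit of glucosidase II, which readies glycoproteins for calnexin and calreticulin, rose by 1.33 (SE 0.14, adjusted p = 7.46e-04), from 46.9, 33.2 and 36.5 CPM to 95.4, 102 and 95.5 CPM. Uggt1, which puts glucose back on glycoproteins that are not yet folded, rose by 0.78 (SE 0.10) and Man1b1, the mannosidase that marks them for disposal, by 0.65 (SE 0.09). Mbtps1, the site-1 protease that cleaves Atf6, rose by 0.86 (SE 0.11, adjusted p = 0.00119), from 38.7, 42.9 and 40.9 CPM to 81.5, 69.3 and 71.4 CPM. Nploc4, a cofactor of the Vcp ATPase that pulls proteins from the membrane, rose by 0.69 (SE 0.11).

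Among those that fell, 3 act at the entry to the ER. Srp54a, of the signal recognition particle, fell by 1.34 on the log2 scale (SE 0.13), though it has close copies among which reads can be split. Sec61g, the third subunit of the channel, fell by 1.17 (SE 0.13, adjusted p = 8.63e-04), from 24.6, 30.3 and 30.6 CPM to 12.3, 13 and 12.6 CPM. Its ratio to Sec61a1 was 0.167 ± 0.0371 in wild-type and 0.0688 ± 0.00306 in knockout libraries (SD, n = 3 each). Spcs1, of the signal peptidase, fell by 1.05 on the log2 scale (SE 0.13). Erlin1, which carries certain membrane proteins to degradation, fell by 0.97 on the log2 scale (SE 0.10). Sdf2, the close relative of Sdf2l1, fell by 0.75 on the log2 scale (SE 0.09, adjusted p = 0.0012), from 129, 119 and 127 CPM to 71, 75 and 77.1 CPM, while Sdf2l1 rose.

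**Figure D5:**
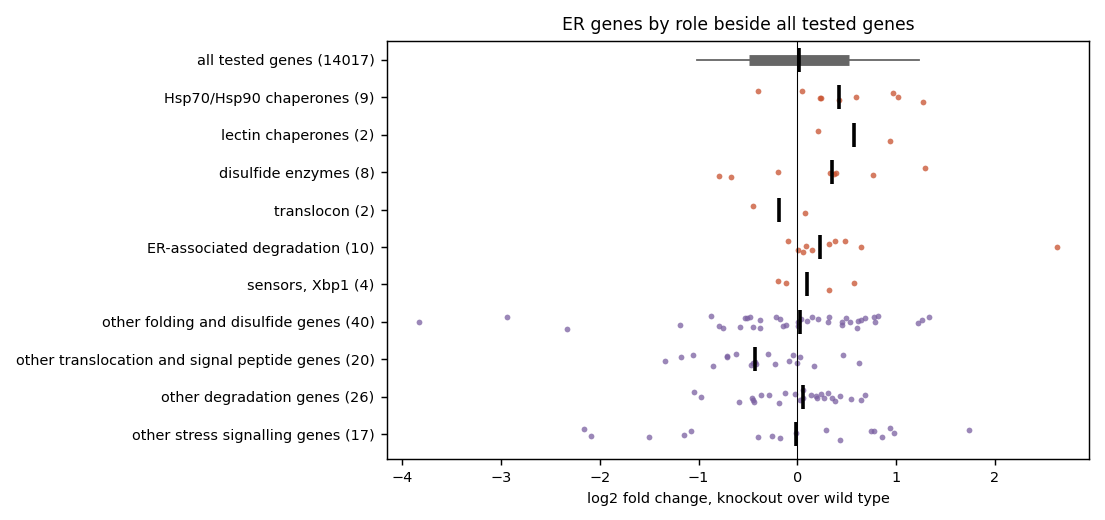
log2 fold change of each gene (points) by role, with the median of each list as a black bar and the number of tested genes in brackets. Orange lists are the 35 genes, purple lists the other ER genes. The top row gives all 14017 tested genes, whose thick line spans the 25th to 75th and thin line the 10th to 90th percentile (-1.02 to 1.23).

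Per length, which allows levels of different genes to be compared, Agr2 led by a wide margin. It was at 4359 CPM per kilobase of its longest transcript in wild-type and 2510 in knockout libraries. In wild type the next were Hsp90b1 (455), Pdia3 (446), P4hb (408), Hspa5 (322) and Calr (278 CPM per kilobase). In the knockout Pdia3 (575) was followed by Calr (531), Hspa5 (485), Hsp90b1 (472) and P4hb (356 CPM per kilobase). The order of these neighbours is not firm, since Hspa5, Hsp90b1 and Pdia3 each varied over the knockout libraries by more than some of the gaps between them. Ern2 stood above Ern1 in both genotypes, at 20.9 against 4.11 CPM per kilobase in wild type and 31.2 against 5.13 in the knockout. Derl3, at 0.18 and 1.15 CPM per kilobase, was the lowest of the 35 in both.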

How the data were processed

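The authors deposited 1 table of estimated counts per gene for 6 libraries, made per the labels' protocols with a Nucleospin RNA kit and a TruSeq Stranded mRNA kit, on build mm10 per the submitters' processing notes. That these are estimated counts was read from the values, many of which are not whole. The aligner, counter, annotation and strand setting were not given in the sources used here. Counts were rounded. Of 34866 identifiers, 34652 matched GENCODE M21, on the same build. Genes were filtered with filterByExpr, scaled with TMM and compared with robust quasi-likelihood fits in edgeR 4.0.16, with Benjamini-Hochberg adjustment over all 14017 tested genes at 0.05. SEs were derived from the fold change and its F value. Adjusted p values in the text are from edgeR unless another tool is named. One count was worth 0.0416 to 0.058 CPM. Between libraries of 1 genotype, chi-square over its degrees of freedom was 16.9 to 85, above counting noise. Per-length levels use the longest M21 transcript. Promoters are RefSeq's on GRCm38.p6, and the letters searched for come from general knowledge of these elements, not from a file of the study. The fits were tested on simulated data. The 35 genes, the other ER genes and the marker lists were chosen with earlier results of these data known. All 35 are named, and of the other ER genes the 5 with the smallest p in each direction. Alternatives were RLE, upper quartile and total-count scaling, library sizes without the 20 most abundant genes, no filter, 1 CPM in 3 libraries, DESeq2 1.42.0, limma-voom (limma 3.58.1), a replicate block, leaving out each library or both numbered 1, and removal of the GC trend. Analyses used R 4.3.3.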

Additional observations from a re-analysis of the deposited data

How the results depend on the processing

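Of 595 comparisons of a member with an alternative setting, 472 kept direction and side of the threshold, 43 lost and 56 gained a call, and 24 changed sign, of which 22 were not called under that setting. With total counts all genes numbered 5730 higher and 1091 lower, the 35 ER genes 28 and 0, and the other ER genes 47 and 11. Without the 20 most abundant genes in library sizes, all genes numbered 4089 and 1706, the 35 genes 21 and 0, and the other ER genes 18 lower. With the GC trend removed the other ER genes lower numbered 19. Leaving out 1 library gave 1600 to 3045 genes higher and 1721 to 2964 lower, 7 to 15 and 0 to 4 of the 35, and 15 to 28 and 16 to 34 of the other ER genes. The causes were not tested. Log2 fold changes that changed sign were, with total counts, Dnajb9 0.0141, P4hb 0.22, Derl2 0.33, Atf6 0.22 and Xbp1 0.30. Without the 20 most abundant genes these were P4hb 0.0118, Derl2 0.12, Atf6 0.00698 and Xbp1 0.0885. With the GC trend removed they were Dnajb9 0.0449, Sec61a1 -0.16, Edem2 -0.12 and Derl2 0.23. Edem3 was at -0.0016 with RLE and -0.10 without both libraries numbered 1. With 1 library left out, values ranged from -0.0819 to 0.199 for Hsp90b1, -0.0423 to 0.222 for Edem2, -0.0599 to 0.0600 for Edem3 and -0.0202 to 0.189 for Derl1. Replicate numbers paired the libraries by deviation only in part. Correlations between like numbers were 0.252, 0.0908 and 0.191, but wild type 3 was closest to knockout 2 (0.275). With the replicate block 12 of the 35 were higher and 2 lower, and all genes called made up 36.2% of those tested. Under it Edem1, Txndc5 and Sec61b lost their calls (0.0625 to 0.0809) and Syvn1 (0.0168) and Agr2 (0.0334) gained one. Depth limits Derl3, with 13 counts in wild type.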

Other observations

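Within each genotype, 1 library was most often the highest for these 35 genes. Wild type 1 was the highest wild-type library for 25 of the 35 (71.4%, against 40.3% of all tested genes). Knockout 3 was the highest knockout library for 23 (65.7% against 33.8%) and knockout 1 the lowest for 20 (57.1% against 39.3%). Members share libraries, so these counts are a description and carry no test. Wild type 1, most often the highest, and knockout 1, most often the lowest, both had the lowest smooth muscle marker sum of their genotype. The part of this in the counts was not tested.

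As a share of all counts, with no composition factor, the 35 genes took 1.1% to 1.19% of wild-type libraries and 1.31% to 1.76% of knockout libraries. On the composition-scaled libraries their sum was 13039 ± 586 CPM in wild-type and 13382 ± 1883 CPM in knockout libraries (SD, n = 3 each), which overlap.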
